A study of Homo sapiens with 8 samples.

Results

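The 10 genes described here, CD44, ALCAM, PROM1, EPHB2, EPHB3, ASCL2, SOX9, ALDH1A1, MSI1 and OLFM4, are widely used as markers of intestinal stem cells or of stem-like colorectal cancer cells. They were chosen by name and taken as the rows that carry these symbols, 10 of the 25192 gene symbols measured. Messenger RNA was sequenced from the human colorectal cancer cell lines HT29 and SW480, each with truncated APC, 36 h after transfection with control siRNA (siCon, directed against firefly luciferase) or with siRNA against PRDX2 (siPrdx2), the gene of the peroxide-reducing enzyme peroxiredoxin II (PrxII). There were 2 libraries in each of the 4 groups. Each line stands for itself and not for a class of tumours. HT29 was grown in McCoy's 5A and SW480 in RPMI1840, so the line and its medium cannot be told apart. The paper's sequencing methods describe HT29 samples only and do not say whether the SW480 libraries were made with them. A separate preparation or sequencing run could not be told apart from the line either. The labels speak of duplicates without saying whether these were separate transfections, and p-values measure only the spread between these libraries, which may be technical.

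At the base of the intestinal crypt, Wnt ligands keep β-catenin from being degraded, and β-catenin with TCF/LEF factors switches on a stem-cell programme in which ASCL2, EPHB2, EPHB3, CD44 and SOX9 take part. Loss of APC function leaves this programme on without the ligand. The markers used to pick out stem-like cancer cells overlap with that programme only in part, since PROM1 (CD133), ALCAM (CD166) and ALDH1A1 were adopted largely because antibodies or an enzyme assay allow cells to be sorted by them.

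The depth of the deposited counts per library, as the sum of expected counts (the estimated number of reads per gene), was 8857442 to 10164137. The paper reports several-fold more sequenced reads per HT29 sample, and the reason for the gap was not tested. Depth here means these deposited counts. At that depth 3 counts are worth 0.295 to 0.339 CPM (counts scaled to a common library size), a limit that covers counting error only. Of 10 markers of colon epithelium, all 10 reached 10 counts in HT29 cells and 7 did so in SW480 cells, where CDX1, LGALS4 and CEACAM5 did not. Of 10 markers of fibroblasts, leukocytes and endothelium, 2 reached 10 counts in HT29 cells and 4 in SW480 cells, and their summed level was 20.4 to 29.6 TPM in HT29 cells and 22.8 to 32.0 TPM in SW480 cells. COL1A1 and CD68 were the 2 that reached 10 counts in HT29 cells, and COL1A1, CD68, PDGFRB and VWF the 4 in SW480 cells. PTPRC, a leukocyte marker, and DCN, a fibroblast marker, were at 0 in both lines. The target of the siRNA was lower in each line after transfection. PRDX2 counted 148 and 154 CPM with control siRNA in HT29 cells and 82.4 and 83.2 CPM after siPrdx2, a log2 fold change of -0.87 (SE 0.0485, adjusted p 1.15e-09). In SW480 cells it was at 209 and 246 CPM and then at 69.5 and 70.7 CPM, a log2 fold change of -1.70 (SE 0.121, adjusted p 6.18e-04). These and all further adjusted p-values come from the quasi-likelihood test of edgeR, adjusted by the Benjamini-Hochberg method over all genes tested, unless another method is named.

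The 10 markers made up a different set in each line. Levels are given as TPM (transcript abundance scaled to the same total in each library, which corrects for transcript length and so allows genes to be compared within a library). TPM values had no further normalisation between libraries. Small differences between siRNA groups can therefore differ in sign from the normalised CPM of the tests. HT29 cells were dominated by ALDH1A1, CD44, PROM1 and SOX9, and SW480 cells by SOX9 and CD44, followed by ASCL2 and EPHB2. The summed level of the 10 genes was 1223 to 1239 TPM in the 4 HT29 libraries and 294.5 to 309 TPM in the 4 SW480 libraries. ALDH1A1 alone gave 60.8 to 62.9% of that sum in HT29 cells and 0.129 to 0.295% in SW480 cells, where SOX9 gave 40.5 to 41.3%. In such bulk samples, fewer cells that express a gene and less of its RNA per cell cannot be told apart.

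**Figure D1:**
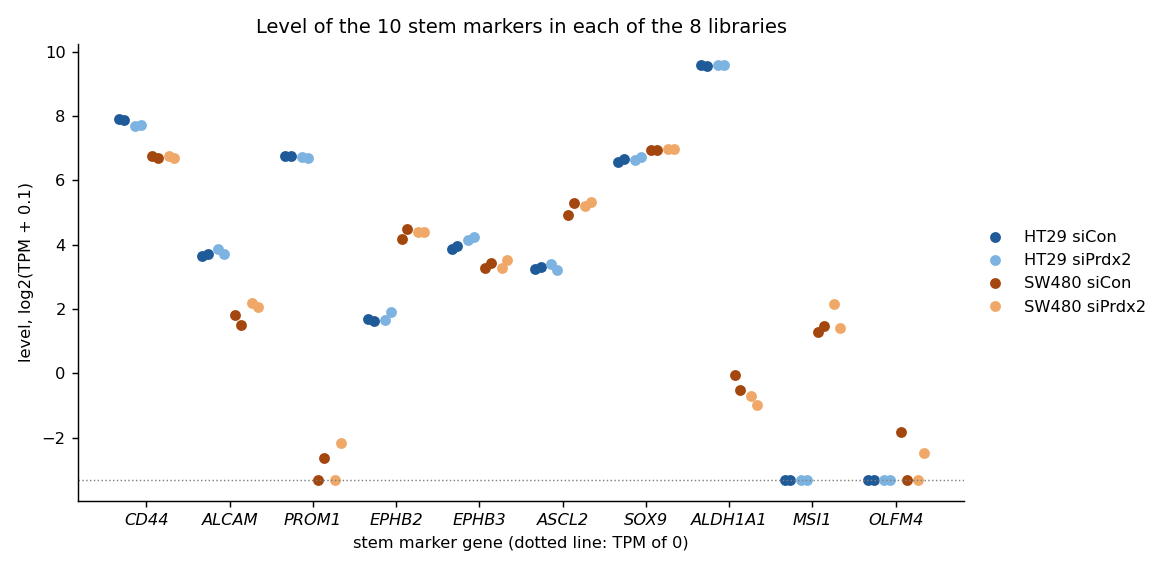
Level of each of the 10 stem markers in each of the 8 libraries, on a log2(TPM + 0.1) axis, with 1 point per library coloured by cell line and siRNA and the dotted line at a TPM of 0. ALDH1A1 and PROM1 sit high in the 4 HT29 libraries and near the bottom in the 4 SW480 libraries, MSI1 is above 0 in SW480 libraries only, and OLFM4 is at or near 0 in all 8.

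Among the surface proteins, CD44, a receptor for the matrix polysaccharide hyaluronan, was abundant in both lines. It was at 237 and 233 TPM in the HT29 control libraries, at 206 and 209 TPM after siPrdx2, at 109 and 103 TPM in the SW480 control libraries, and at 107 and 103 TPM after siPrdx2. The HT29 siPrdx2 libraries lay below both HT29 controls, whereas the SW480 values of the groups overlapped. CD44 lies on chromosome 11 of GRCh37 (the assembly also called hg19), from 35160429 to 35253949 on the plus strand. Its promoter window, shown because CD44 was the member that passed the test for PrxII depletion in HT29 cells, runs from 250 bases before the annotated start to 50 after it (RefSeq, GRCh38.p14, chr11:35138921-35139220, plus strand). Capitals mark CpG dinucleotides, of which there are 18, against a median of 14 over 35116 promoter windows.
CD44: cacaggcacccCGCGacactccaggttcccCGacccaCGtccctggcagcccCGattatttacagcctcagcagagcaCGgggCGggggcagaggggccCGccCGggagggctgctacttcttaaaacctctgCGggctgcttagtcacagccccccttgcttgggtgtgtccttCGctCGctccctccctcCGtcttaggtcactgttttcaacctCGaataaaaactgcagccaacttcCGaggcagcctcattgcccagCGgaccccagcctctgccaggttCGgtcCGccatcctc
The TCF/LEF core motifs CTTTGAT and CTTTGTT were searched on both strands. Neither was found in this window, which says only that these letters are absent from these bases.

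PROM1, a membrane protein of cell protrusions, was at 108 and 108 TPM in the HT29 control libraries and at 105 and 104 TPM after siPrdx2. In SW480 cells it was at 0 and 0.060 TPM with control siRNA and at 0 and 0.12 TPM after siPrdx2, which rests on 0, 1, 0 and 2 counts. PROM1 was thus among the leading markers of HT29 cells and at the detection limit in SW480 cells. The gene lies on chromosome 4 of GRCh37, from 15964699 to 16086001 on the minus strand. RefSeq gives PROM1 4 promoter windows, and the one at chr4:16076069-16076368 (GRCh38.p14, minus strand) is shown because it was the single window, of the 11 windows found for 7 of the 10 genes, that held CTTTGAT, written in capitals, 179 bases before the start. CTTTGAT stood in 2.62% of all 35116 windows, CTTTGTT in 5.2% of all windows and in none of those 11.
PROM1: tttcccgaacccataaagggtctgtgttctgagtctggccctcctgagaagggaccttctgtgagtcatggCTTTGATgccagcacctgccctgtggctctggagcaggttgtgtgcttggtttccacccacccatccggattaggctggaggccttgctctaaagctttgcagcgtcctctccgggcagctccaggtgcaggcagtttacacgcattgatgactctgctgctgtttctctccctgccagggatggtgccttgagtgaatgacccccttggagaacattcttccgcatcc
A match is a description of the letters and not a binding site. ASCL2, SOX9 and MSI1 had no window.

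ALCAM, a cell adhesion molecule of the immunoglobulin superfamily, was at 12.3 and 12.9 TPM in the HT29 control libraries and at 14.4 and 12.9 TPM after siPrdx2. It was lower in SW480 cells, at 3.4 and 2.72 TPM with control siRNA and at 4.44 and 4.05 TPM after siPrdx2. The SW480 groups did not overlap, and the values rest on 58 and 57 counts against 87 and 84.

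EPHB2 and EPHB3 are receptor tyrosine kinases that bind ephrin-B ligands and sort crypt cells by position. Their order was opposite in the 2 lines. EPHB2 was at 3.09 and 2.96 TPM in the HT29 control libraries and at 3.04 and 3.6 TPM after siPrdx2, against 17.9 and 22.2 TPM and then 20.9 and 20.7 TPM in SW480 cells. EPHB3 was at 14.4 and 15.5 TPM in the HT29 controls and at 17.6 and 18.5 TPM after siPrdx2, against 9.46 and 10.6 TPM and then 9.49 and 11.4 TPM in SW480 cells. EPHB3 was therefore the more abundant receptor in every HT29 library and EPHB2 in every SW480 library.

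Among the transcription factors, SOX9, which is expressed in crypt stem cells and Paneth cells, was close to 100 TPM throughout. It stood at 95.2 and 100.02 TPM in the HT29 controls and at 98.8 and 104 TPM after siPrdx2, and at 122 and 123 TPM in the SW480 controls and at 125 and 127 TPM after siPrdx2. ASCL2, a Wnt-dependent master regulator of intestinal stem cells, was at 9.39 and 9.79 TPM in the HT29 controls and at 10.3 and 9.12 TPM after siPrdx2. In SW480 cells ASCL2 was at 29.9 and 38.8 TPM with control siRNA and at 36.4 and 39.9 TPM after siPrdx2. The SW480 control duplicates of ASCL2 stood farther apart than the means of the SW480 groups.

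ALDH1A1, a cytosolic enzyme that oxidises retinaldehyde to retinoic acid, was at 759 and 748 TPM in the HT29 controls and at 770 and 762 TPM after siPrdx2. It ranked between 147 and 157 among all genes in the 4 HT29 libraries. In SW480 cells it was at 0.87 and 0.6 TPM with control siRNA and at 0.51 and 0.4 TPM after siPrdx2, which rests on 4 to 8 counts per library. ALDH1A1 lies on chromosome 9 of GRCh37, from 75515587 to 75695358 on the minus strand. Its promoter window (RefSeq, GRCh38.p14, chr9:72953004-72953303, minus strand), shown because ALDH1A1 was the most abundant marker of one line and near 0 in the other, holds 7 CpG dinucleotides, in capitals, and neither TCF/LEF motif.
ALDH1A1: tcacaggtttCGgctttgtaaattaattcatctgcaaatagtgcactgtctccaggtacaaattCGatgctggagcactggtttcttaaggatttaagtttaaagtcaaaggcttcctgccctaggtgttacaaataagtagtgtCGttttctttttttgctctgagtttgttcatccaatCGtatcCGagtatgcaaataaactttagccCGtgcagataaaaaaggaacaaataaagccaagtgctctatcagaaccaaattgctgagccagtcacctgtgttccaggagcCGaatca
Among the 35116 windows, 39.3% had as few CpG dinucleotides as the ALDH1A1 window and 57.1% as few as that of CD44.

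MSI1, an RNA-binding protein of neural and intestinal progenitors that represses translation of NUMB, was at 0 in all 4 HT29 libraries. In SW480 cells it was at 2.34 and 2.69 TPM with control siRNA and at 4.32 and 2.56 TPM after siPrdx2, from 27, 34, 53 and 32 counts. One siPrdx2 library thus stood above the other 3. OLFM4, a secreted glycoprotein that marks human crypt base stem cells, had no count in any HT29 library, which allows up to 0.295 to 0.318 CPM. In SW480 cells OLFM4 had 2 and 0 counts with control siRNA and 0 and 1 after siPrdx2, so it was not detectable at this depth and entered no test.

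Within the HT29 control libraries the order by TPM was ALDH1A1, CD44, PROM1, SOX9, EPHB3, ALCAM, ASCL2 and EPHB2, and no neighbours among these overlapped between duplicates. After siPrdx2 the order was the same, and PROM1 at 105 and 104 TPM overlapped with SOX9 at 98.8 and 104 TPM. The SW480 control order was SOX9, CD44, ASCL2, EPHB2, EPHB3, ALCAM, MSI1 and ALDH1A1, with no overlap between neighbours. After siPrdx2 it was again the same, and ALCAM overlapped with MSI1.

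The control libraries of the lines were then compared by edgeR over the 14346 genes that reached 10 counts in 2 or more of these 4 libraries. Of the 9 markers tested, 8 passed, 3 higher and 5 lower in SW480 than in HT29 cells, where 67.5% of all genes tested passed, 35.7% higher and 31.8% lower. A share of that size in the background means that passing here is common and is not particular to these genes. Of the 8 calls, 3 (PROM1, ALDH1A1 and MSI1) belong to genes that reached 10 counts in 1 line only and so had to differ, and the count is no support for a difference between the lines. Of the 6 genes that reached 10 counts in both lines, EPHB2 and ASCL2 were higher and CD44, ALCAM and EPHB3 lower in SW480 cells, and SOX9 did not pass.

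PROM1 had 3818 counts over the HT29 control libraries and 1 over the SW480 control libraries, a ratio of 3590 after scaling for library size with a 95% counting interval of 644 to 142000. ALDH1A1 had 15812 against 14 counts, a ratio of 1060 with a counting interval of 633 to 1940. MSI1 had 61 counts in SW480 cells and none in HT29 cells, so it was at least 21.6-fold higher in SW480 cells when 3 counts over the HT29 group are taken as the floor. These 3 genes are given as counts and ratios without a test, since they entered the fit only through the line in which they are high.

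The other differences between the lines were smaller. EPHB2 was at 6.97 ± 0.23 CPM in HT29 and 42.3 ± 6.58 CPM in SW480 controls (SD, n = 2 each), a log2 difference of 2.60 (SE 0.176, adjusted p 3.24e-06). ASCL2 was at 8.24 ± 0.23 and 27.0 ± 5.17 CPM (SD, n = 2 each), a log2 difference of 1.71 (SE 0.191, adjusted p 6.70e-05). Both genes were therefore several-fold higher in SW480 cells. ALCAM was at 28.0 ± 1.92 and 6.10 ± 0.41 CPM (SD, n = 2 each), a log2 difference of -2.20 (SE 0.173, adjusted p 7.89e-06). CD44 was at 569 ± 8.37 and 218 ± 5.10 CPM (SD, n = 2 each), a log2 difference of -1.39 (SE 0.0919, adjusted p 2.85e-06). EPHB3 was at 29.8 ± 1.41 and 18.3 ± 1.61 CPM (SD, n = 2 each), a log2 difference of -0.70 (SE 0.144, adjusted p 0.00239). SOX9 was at 181 ± 6.11 and 208 ± 3.06 CPM (SD, n = 2 each), and its log2 difference of 0.20 (95% interval -0.02 to 0.42, adjusted p 0.101) did not pass. With limma on log2(TPM + 1), with all 8 libraries in 1 fit, or without either SW480 control library SOX9 passed, with adjusted p between 0.00366 and 0.0207, and after correction for GC content its difference was -0.03 (adjusted p 0.679).

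LGR5, the Wnt-dependent receptor that defines cycling crypt base stem cells, stood outside the 10 and was low in both lines. It was at 6.27 and 5.04 TPM in the HT29 controls and at 8.41 and 6.7 TPM after siPrdx2, and at 0.98 and 1.23 TPM and then 1.35 and 0.99 TPM in SW480 cells. The control lines differed by -2.47 on the log2 scale (SE 0.28, adjusted p 7.38e-05), so LGR5 was lower in SW480 cells, as were CD44, ALCAM and EPHB3.

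In HT29 cells CD44 was lower after PrxII depletion, and no other marker passed the test. Of the 8 markers with enough counts, 1 was called and it was lower, where 17.6% of the 12961 genes tested were called, 9.82% lower and 7.76% higher, so the markers' share was close to the background. MSI1 and OLFM4 had no counts. The median log2 fold change of the 8 was -0.02, against 0.00 over all genes. At an unadjusted p under 0.05 there were 3 markers, CD44, PROM1 and EPHB3.

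CD44 counted 562 and 552 CPM in the controls of HT29 cells and 464 and 475 CPM after siPrdx2. Both depleted libraries lay below both controls. The log2 fold change was -0.25 (SE 0.0263, 95% interval -0.30 to -0.19, adjusted p 3.28e-06), so CD44 decreased by 15.7%. The study searched these same HT29 libraries for β-catenin target genes that fell, and CD44, a known target, was taken up here with earlier results of these data known, so this fall is not independent evidence of that direction. CD44 passed in 13 of 14 other settings, with log2 fold changes of -0.26 to -0.18. The exception was the fit of all 8 libraries together, where the value was -0.24 (adjusted p 0.0961). That fit also draws on the spread of other genes between the SW480 duplicates, and the cause of the lost call was not tested.

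PROM1 was at 197 and 198 CPM in the controls and at 183 and 183 CPM after siPrdx2. The duplicates lay within 1 CPM of each other and the groups did not overlap, but the log2 fold change of -0.11 (SE 0.0391, adjusted p 0.0592) missed the threshold. It passed after correction for GC content (-0.13, adjusted p 0.00509), with a replicate block (-0.11, adjusted p 0.0229) and with edgeR's robust prior (-0.11, adjusted p 0.0411). It did not pass with DESeq2 (adjusted p 0.315), with the 8 libraries in 1 fit (adjusted p 0.679) or with limma on log2(TPM + 1), where the value was -0.046 (adjusted p 0.446). ALDH1A1 was at 824 and 812 CPM and then at 798 and 794 CPM, a log2 fold change of -0.04 (SE 0.0211, 95% interval -0.08 to 0.00, adjusted p 0.217). The 2 genes that separated the lines most thus had small fold changes between the siRNA groups. After the GC correction ALDH1A1 passed as well, at -0.05 (adjusted p 0.0436). On the TPM scale of limma, which has no further normalisation between libraries, its value was 0.02 (adjusted p 0.543), the opposite sign. PROM1 was shifted in the same direction on that scale, from -0.11 to -0.046.

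EPHB3 was at 28.2 and 30.3 CPM in the HT29 controls and at 32.8 and 34.7 CPM after siPrdx2. The depleted libraries lay above both controls, with a log2 fold change of 0.21 (SE 0.0809, adjusted p 0.0929) that passed only with the GC correction (0.24, adjusted p 0.0284). EPHB2 was at 6.98 and 6.68 CPM and then at 6.53 and 7.78 CPM, a log2 fold change of 0.06 (95% interval -0.31 to 0.44, adjusted p 0.853). ALCAM was at 26.1 and 28.8 CPM and then at 31.0 and 28.1 CPM, a log2 fold change of 0.11 (95% interval -0.08 to 0.30, adjusted p 0.452). For both EPHB2 and ALCAM the groups overlapped.

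The transcription factors differed by less than the spread between duplicates. SOX9 was at 173 and 182 CPM in the controls and at 171 and 182 CPM after siPrdx2, a log2 fold change of -0.01 (95% interval -0.10 to 0.09, adjusted p 0.941). ASCL2 was at 7.90 and 8.24 CPM and then at 8.29 and 7.36 CPM, a log2 fold change of -0.04 (95% interval -0.38 to 0.30, adjusted p 0.902). ASCL2 had 70 to 85 counts per library, and changes inside its interval were not detectable at this depth.

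**Figure D2:**
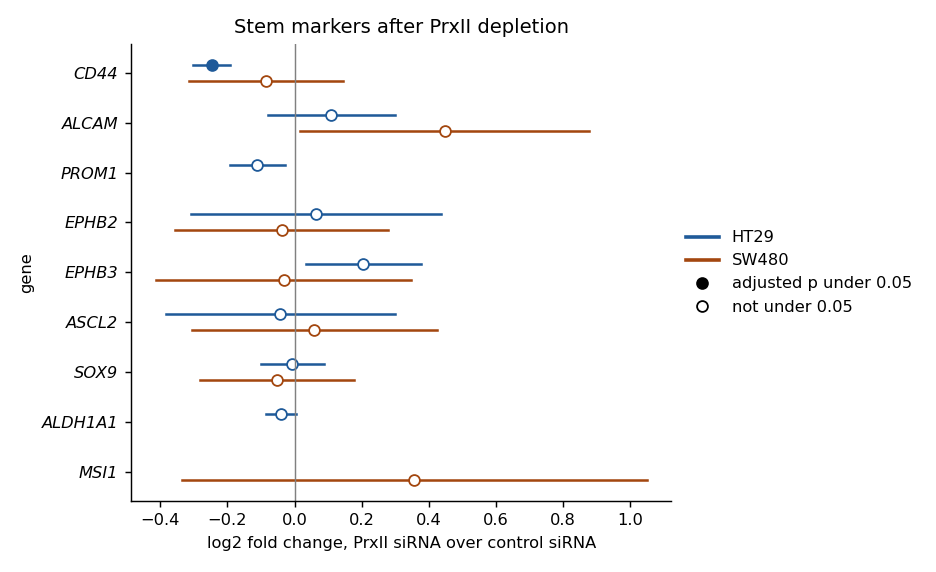
Log2 fold change of PrxII siRNA over control siRNA for each stem marker tested, with points for the estimate, bars for its 95% interval, blue for HT29 and brown for SW480, and filled points for an adjusted p under 0.05. CD44 in HT29 cells, at -0.25, is the filled point, and PROM1, ALDH1A1 and MSI1 have an estimate in 1 line only.

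In SW480 cells no marker passed, and PROM1 and ALDH1A1, abundant in HT29 cells, could not be tested there. Of the 7 markers with enough counts, 0 were called by edgeR, by DESeq2 and by limma, and 1, ALCAM, had an unadjusted p under 0.05 with edgeR. In all, 3.3% of the 14112 genes tested were called, 2.08% lower and 1.22% higher. PROM1, OLFM4 and ALDH1A1 did not reach 10 counts in 2 libraries. The median log2 fold change of the 7 was -0.03, against 0.00 over all genes. The SW480 control duplicates differed from each other with a chi-square over genes of 11.2 per degree of freedom. That value was 2.13 between the SW480 siPrdx2 duplicates and 1.43 and 1.71 between the HT29 duplicates. The second SW480 control differed slightly less from the siPrdx2 libraries (10.7 and 10.8) than from the first control. The first control differed more from them (21.7 and 23.6). The difference between the SW480 control duplicates moved with the GC content of the transcript (Spearman's rho -0.723 across 12419 genes, which share the same libraries).

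ALCAM was at 6.71 and 6.09 CPM in the SW480 controls and at 8.94 and 8.49 CPM after siPrdx2. The depleted libraries lay above both controls, and the log2 fold change was 0.45 (SE 0.191, 95% interval 0.02 to 0.88, adjusted p 0.193). ALCAM has the lowest GC content of the 10 genes, 38.6% against a median of 49.8% over all genes, and after the GC correction its log2 fold change was 0.68 (adjusted p 0.0222).

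ASCL2 has the highest GC content, 69.6%. It was at 24.5 and 32.1 CPM in the SW480 controls and at 28.2 and 30.9 CPM after siPrdx2, so that the depleted libraries lay between the controls. The log2 fold change was 0.06 (95% interval -0.31 to 0.42, adjusted p 0.849). It was -0.35 after the GC correction (adjusted p 0.0351), -0.12 without the first control library and 0.27 without the second, so its direction was not fixed by these libraries.

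CD44 was at 232 and 224 CPM in the SW480 controls and at 218 and 213 CPM after siPrdx2. Both depleted libraries lay just below both controls on this scale, with a log2 fold change of -0.08 (SE 0.102, 95% interval -0.31 to 0.14, adjusted p 0.629). The interval includes both no change and the -0.25 measured in HT29 cells. SOX9 was at 216 and 220 CPM and then at 209 and 212 CPM, a log2 fold change of -0.05 (95% interval -0.28 to 0.18, adjusted p 0.774).

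EPHB2 was at 39.5 and 49.2 CPM in the SW480 controls and at 43.5 and 43.1 CPM after siPrdx2, a log2 fold change of -0.04 (95% interval -0.36 to 0.28, adjusted p 0.892). EPHB3 was at 18.0 and 20.4 CPM and then at 17.1 and 20.5 CPM, a log2 fold change of -0.03 (95% interval -0.41 to 0.35, adjusted p 0.924). MSI1 was at 3.12 and 3.63 CPM and then at 5.45 and 3.23 CPM, a log2 fold change of 0.36 (95% interval -0.34 to 1.05, adjusted p 0.493). Without the first siPrdx2 library MSI1 was at -0.06, so its positive value rested on that library.

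**Figure D3:**
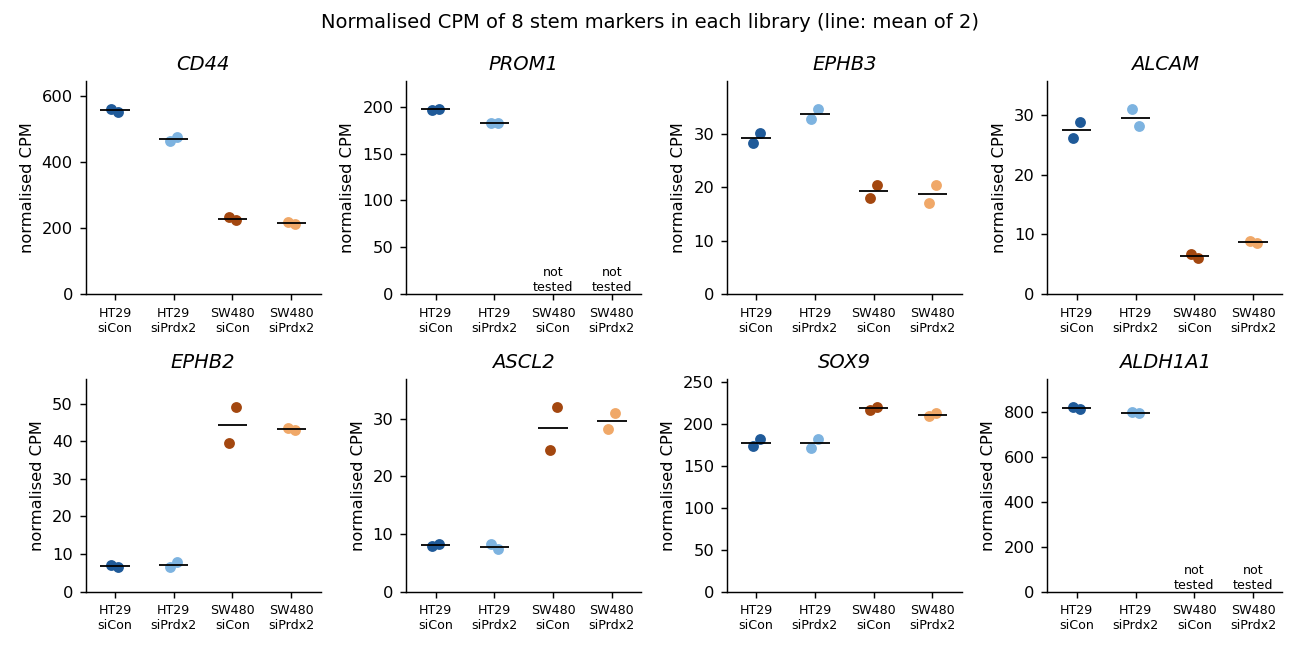
Normalised CPM of 8 stem markers in each library, with each axis starting at 0, 1 point per library, a line at the mean of the 2 libraries of a group, and values scaled within each cell line as for its test. CD44 falls from 557 to 470 CPM on average in HT29 cells, and the SW480 controls of ASCL2 and EPHB2 stand farther apart than the siPrdx2 libraries.

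The effect of PrxII depletion was not shown to differ between the lines for any marker. In the test of the difference, SW480 minus HT29, over 14772 genes, 1.12% were called by edgeR. The 6 markers tested in both lines gave 0 calls, 0 at an unadjusted p under 0.05, and 0 calls with limma. With DESeq2 CD44, EPHB3 and SOX9 were not called, and ASCL2, EPHB2 and ALCAM were given no adjusted p. CD44 differed by 0.16 (SE 0.0867, 95% interval -0.03 to 0.35, adjusted p 0.336), the smaller decrease being in SW480 cells. ALCAM differed by 0.34 (95% interval -0.10 to 0.78, adjusted p 0.373) and EPHB3 by -0.24 (95% interval -0.62 to 0.14, adjusted p 0.47). For EPHB2 the difference was -0.10, for ASCL2 0.10 and for SOX9 -0.05, with adjusted p-values of 0.831 to 0.867. CD44 passed when either SW480 control library was left out, with differences of 0.19 without the first (adjusted p 0.0351) and 0.15 without the second (adjusted p 0.0358), and CD44 and EPHB3 passed with the GC correction, at 0.25 (adjusted p 0.0201) and -0.51 (adjusted p 0.043). The lone control library is then assumed to vary like the other groups.

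Other genes of the intestinal stem-cell programme moved in both directions in HT29 cells. Of 17 tested, from a list of 23, 7 were called, 4 higher and 3 lower, against 17.6% of all genes tested, and their median log2 fold change was 0.00. SOX4, a transcription factor of progenitors and a relative of SOX9, rose from 187 and 189 CPM to 263 and 272 CPM, a log2 fold change of 0.51 (SE 0.0377, adjusted p 3.74e-08). PTK7, a pseudokinase of planar cell polarity signalling, rose by 0.28 on the log2 scale (SE 0.0505, adjusted p 8.79e-04). KLF5, a transcription factor of proliferating crypt cells, rose by 0.14 (SE 0.0251, adjusted p 5.99e-04). BMI1, a Polycomb subunit that was named after its values were seen, rose by 0.50 (SE 0.105, adjusted p 0.00265), with control libraries at 44.3 and 31.1 CPM, and its value was 0.78 without the first and 0.27 without the second.

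Of the genes that fell in HT29 cells, LRIG1, a membrane inhibitor of ERBB receptors and a stem-cell marker, went from 71.7 and 73.0 CPM to 59.4 and 55.4 CPM, a log2 fold change of -0.33 (SE 0.0588, adjusted p 6.91e-04). LGR4, the R-spondin receptor related to LGR5, fell by 0.20 on the log2 scale (SE 0.0406, adjusted p 0.00214), and ITGB1, the integrin β1 subunit, fell by 0.15 (SE 0.0237, adjusted p 2.11e-04). LGR5 itself was at 8.31 and 6.68 CPM and then at 10.6 and 8.52 CPM, a log2 fold change of 0.36 (95% interval -0.01 to 0.72, adjusted p 0.175) that did not pass. With all 8 libraries in 1 fit SOX4 was the only one of these genes that was still called, and on the TPM scale of limma ITGB1 and LGR4 were not. The call of BMI1 was also lost with DESeq2 (adjusted p 0.226) and with the robust prior (adjusted p 0.152).

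In SW480 cells 0 of 19 genes of that list were called by edgeR, where 3.3% of all genes tested were, and 5 had an unadjusted p under 0.05. LRIG1 was at 75.3 and 80.3 CPM and then at 53.6 and 58.3 CPM, a log2 fold change of -0.48 (SE 0.117, adjusted p 0.0618) that passed with DESeq2 (adjusted p 0.041). LGR4 had -0.41 (SE 0.151, adjusted p 0.143) and ITGB1 -0.33 (SE 0.102, adjusted p 0.105). SOX4 had 0.14 (SE 0.107, adjusted p 0.448), PTK7 0.12 (SE 0.121, adjusted p 0.574) and BMI1 0.51 (SE 0.152, adjusted p 0.0969). KLF5, which rose in HT29 cells, had -0.11 (SE 0.108, adjusted p 0.536), and the difference between the lines for KLF5 was -0.26 (unadjusted p 0.0185, adjusted p 0.178). Of 14 other settings in SW480 cells, LRIG1 passed in 7, BMI1 in 5, LGR4 in 4, ITGB1 in 3 and PTK7 in 1, and with the replicate block LRIG1 (adjusted p 0.0159) and BMI1 (adjusted p 0.0249) did. The difference between the lines was called for 0 of the 20 genes of the list that entered its test, where 1.12% of all genes tested were called. LGR6, TNFRSF19 and DCLK1 had enough counts in SW480 cells only and HOPX in HT29 cells only. For these genes a difference in response could not be measured. An unadjusted p under 0.05 was found for 4 genes, SOX4, MSI2, KLF5 and DCLK1, and DCLK1 was at 0 CPM in both HT29 controls.

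Among 22 relatives and partners of the markers, the ALDH1 family held the gene that was called in both lines. ALDH1A3, an enzyme that like ALDH1A1 makes retinoic acid, was at 22.5 and 21.1 CPM in the HT29 controls and at 43.1 and 43.4 CPM after siPrdx2, a log2 fold change of 0.99 (SE 0.0796, adjusted p 1.07e-07). It rose in SW480 cells from 325 and 327 CPM to 525 and 541 CPM, a log2 fold change of 0.71 (SE 0.0927, adjusted p 0.00895). Every depleted library lay above every control of its line. Without either SW480 siPrdx2 library the SW480 value was 0.73 or 0.69 and no longer passed (adjusted p 0.119 and 0.181).

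ALDH1A3 and ALDH1A1 were abundant in opposite lines. ALDH1A3 was at 13.9 and 13.1 TPM in the HT29 controls, where ALDH1A1 was at 759 and 748 TPM, and at 206 and 206 TPM in the SW480 controls, where ALDH1A1 was under 1 TPM. PROM2, the relative of PROM1, had the same distribution over the lines as PROM1, at 52.9 and 49.8 TPM in the HT29 controls and at 0 in both SW480 controls.

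In all, 4 of 16 relatives and partners tested in HT29 cells were called, 2 higher and 2 lower, where 17.6% of all genes tested were called, and 1 of 17 in SW480 cells, where 3.3% were. PROM2 fell by 0.27 on the log2 scale in HT29 cells (SE 0.0515, adjusted p 0.00131), and ESRP2, a splicing factor that favours the epithelial form of CD44, fell by 0.26 (SE 0.051, adjusted p 0.00162). Its relative ESRP1, named after its values were seen, was more abundant, at 256 and 252 CPM in the HT29 controls against 111 and 111 CPM. ESRP1 had a log2 fold change of 0.06 (SE 0.0361, adjusted p 0.249) and was not called. EPHB4, an ephrin receptor of the same family as EPHB2 and EPHB3, rose by 0.10 (SE 0.0344, adjusted p 0.0448) from 299 and 315 CPM to 325 and 335 CPM. In SW480 cells EPHB4 had a log2 fold change of 0.47 (SE 0.119, adjusted p 0.0655), which passed in 7 of 14 other settings, among them DESeq2 (adjusted p 0.0274), the replicate block (adjusted p 0.012) and the 8 libraries in 1 fit (adjusted p 0.00585). The HT29 call of EPHB4 was lost with DESeq2 and without 3 of the 4 HT29 libraries in turn, and those of PROM2 and ESRP2 with limma on TPM. All 3 were lost with the 8 libraries in 1 fit, in which ALDH1A3 was still called in both lines.

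**Figure D4:**
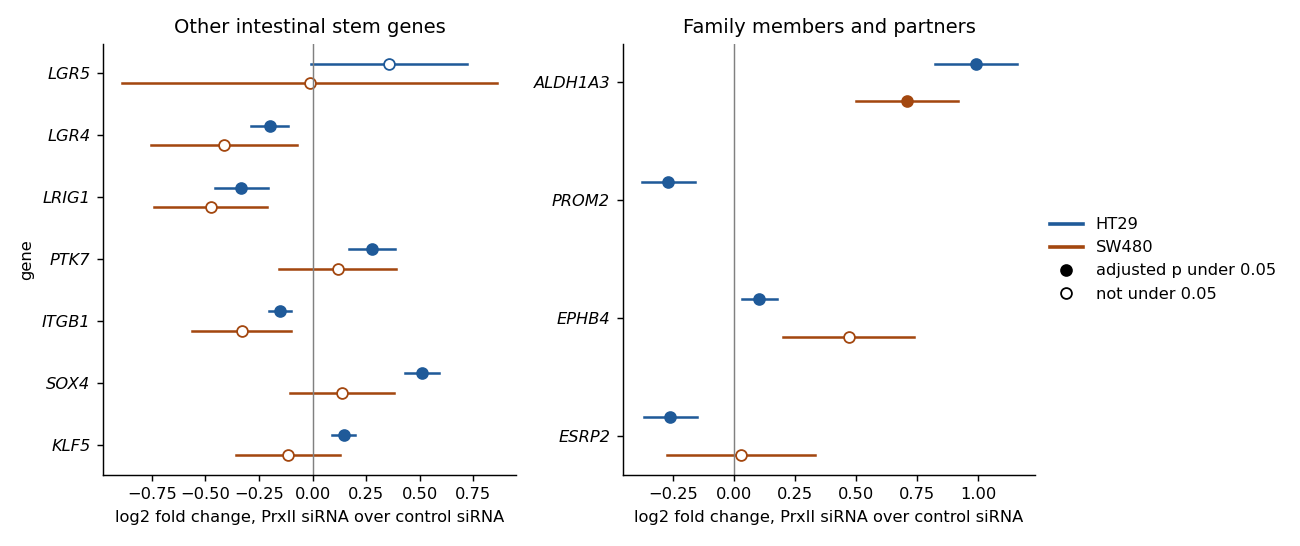
Log2 fold change of PrxII siRNA over control siRNA for LGR5 and the named genes of the stem-cell list (left) and of the relatives and partners (right), with bars for the 95% interval, blue for HT29, brown for SW480 and filled points for an adjusted p under 0.05. ALDH1A3 is filled in both lines, at 0.99 and 0.71, and SOX4 stands at 0.51 in HT29 cells.

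CD44 is made in several splice forms, and the transcript length that RSEM reports for a gene, weighted by the estimated abundance of its transcripts, moves with the mix of forms. CD44 has 8 annotated transcripts in these files. Its weighted length was 5105 and 5105 nt in the HT29 controls and 5100 and 5118 nt after siPrdx2. The SW480 values were 4724 and 4755 nt with control siRNA and 4782 and 4812 nt after siPrdx2. All 4 SW480 values lay below all 4 HT29 values. The log2 ratio of the control means, SW480 over HT29, was -0.107, and 3.08% of 4577 genes with several transcripts had a ratio of at least that size in either direction. The change with siPrdx2 was 0.0174 on the log2 scale in SW480 cells, which 15.5% of those genes reached, and 0.00121 in HT29 cells, which 62.6% reached. These lengths are estimates with no test, and they do not say which exons differ. Of the other markers, 6 have a single annotated transcript, and EPHB2, ALCAM and PROM1 have several.

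**Figure D5:**
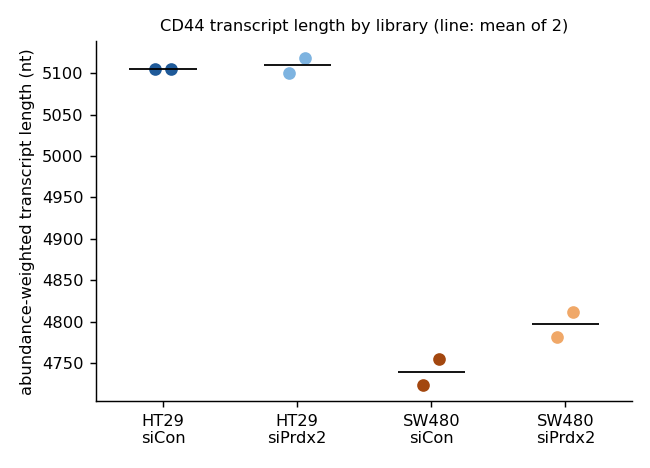
Abundance-weighted transcript length of CD44 in nucleotides in each library, with 1 point per library, a line at the mean of the 2 libraries of a group, and an axis that does not start at 0. The SW480 libraries lie between 4724 and 4812 nt and the HT29 libraries between 5100 and 5118 nt.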

How the data were processed

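The authors used MapSplice for alignment (genome build hg19) and RSEM for quantification. The deposited tables give, per refGene symbol and library, an expected count, a TPM value and an abundance-weighted transcript length. The submitters' processing notes also name FastQC and DESeq2. The library kit that the paper names for the HT29 samples keeps no strand. Reads from a gene and an antisense transcript over it cannot be told apart there. For the SW480 libraries the paper names no kit.

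The deposited expected counts were rounded and fitted with edgeR 4.0.16 (R 4.3.3, TMM normalisation, glmQLFit and glmQLFTest, adjustment by Benjamini-Hochberg at 0.05), keeping genes that reached 10 counts in 2 or more libraries of the fit. Each line, the 4 control libraries and the interaction over all 8 libraries were fitted separately. Intervals are at 95%. The tests were checked on simulated counts with the same spread for all genes and groups of a comparison. Such counts hold no difference along GC content as seen between the SW480 control duplicates, so the check does not cover it. Samples were grouped by the labels.

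The genes and lists were chosen with earlier results of these data known. The text names the 10 markers, PRDX2, LGR5 and, from a list of 23 stem-cell genes and one of 22 relatives and partners, at most 6 called genes of smallest p per list and line. Promoter windows came from RefSeq.

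The alternatives were RLE normalisation, no filter, DESeq2 1.42.0, limma 3.58.1 (on log2 of TPM plus 1 or plus 0.1), a robust prior, a replicate block, all 8 libraries together, and each library left out. A GC correction (loess offset on transcript GC content, span 0.5), with and without the block, was added after seeing the data. On log2(TPM + pseudocount) the changes of low genes are understated. No TMM normalisation was applied to TPM, so all fold changes of a comparison can be shifted together on that scale.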

Additional observations from a re-analysis of the deposited data

Results flagged for a closer look

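The fall of PRDX2, the target of the siRNA, differed between the lines in the test of the difference, where SW480 minus HT29 was -0.84 on the log2 scale (SE 0.123, adjusted p 0.0128 by edgeR). The log2 fold change of PRDX2 was -1.70 in SW480 cells and -0.87 in HT29 cells. Without any 1 of the HT29 libraries or of the SW480 siPrdx2 libraries the difference was -0.86 to -0.81 and no longer passed (adjusted p 0.122 to 0.159). None of the 10 markers met this criterion. Outliers were not looked for, since each group held 2 libraries.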

How the results depend on the processing

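OLFM4, and PROM1 and ALDH1A1 in SW480 cells, lay too low to test. Intervals were wide for ASCL2 and EPHB2 in both lines and for MSI1, ALCAM and EPHB3 in SW480 cells. How far low counts or the spread of the SW480 control duplicates set these widths was not tested. Over the named genes and settings, 721 fold changes kept their sign without a change of call, 48 gained a call, 34 lost one and 47 changed sign. Values to which DESeq2 gave no adjusted p are counted among the 721 where the sign was kept, although no call was possible. The replicate numbers could not be shown to pair the libraries (correlations of same-numbered deviations of 0.104 in HT29 and 0.106 in SW480 cells, 2 pairs each). With the replicate block 2 markers were called in HT29 cells (CD44 and PROM1), 0 in SW480 cells, 0 for the difference and 8 between control lines, and 2889 and 1727 genes were called in HT29 and SW480 cells in place of 2279 and 466. Between control lines the block joins libraries of different lines by their replicate number alone, so that count is no check of the calls. The robust prior called 2 markers in HT29 cells, the 8 libraries together 0, and the GC correction 4 (ALDH1A1, CD44, EPHB3 and PROM1), as did the GC correction with the block. In SW480 cells the GC correction called 2 (ALCAM and ASCL2) and for the difference 2 (CD44 and EPHB3), again with or without the block. Leaving out 1 library at a time gave 1 marker in HT29 cells in every case, 0 in SW480 cells, 0 to 1 for the difference and 8 to 9 between control lines.

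Over all genes, calls ranged from 185 (8 libraries together) to 2889 in HT29 cells, with 871 by DESeq2. In SW480 cells the count was 7364 without the second and 3405 without the first control library, 117 and 102 without the siPrdx2 libraries, 2415 with 8 libraries, 2132 with the GC correction (2819 with the block), and 214 and 177 by limma. For the difference it was 6 to 5243 with 1 library left out, 906 with the GC correction, 311 by DESeq2 and 43 to 103 by limma, against 166. Limma on log2(TPM + 1) called 69.6% of its genes as higher in HT29 and 58.9% in SW480 cells, against 44.1% and 36.9% by edgeR, and moved the median difference between control lines from 0.0447 to 0.151, while the GC correction moved it to -0.0992 and called 45.2% as higher rather than 52.9%. The GC correction also raised the share called higher in SW480 cells to 47.2%, and the block to 49.7%.

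Signs changed for genes that had no call by edgeR. The TPM values given to limma carry no TMM normalisation. With limma on log2(TPM + 1) and on log2(TPM + 0.1), HT29 values were 0.016 and 0.018 for ASCL2, 0.057 and 0.058 for SOX9 and 0.024 for ALDH1A1 on either scale, and SW480 values were 0.059 and 0.062 for EPHB2, 0.050 and 0.054 for EPHB3, 0.037 for SOX9 on either scale and 0.041 and 0.069 for LGR5. With the GC correction, without and with the block, ASCL2 was at 0.049 and 0.046 in HT29 cells, at -0.35 in SW480 cells and -0.39 for the difference in either case, and SOX9 at -0.026 between control lines. In SW480 cells LGR5 was then at 0.098, KLF5 at 0.057 and 0.059, PTK7 at -0.067 and -0.069, and ESRP2 at -0.18. With 1 library left out, HT29 values ran from -0.049 to 0.039 for SOX9, from -0.13 to 0.040 for ASCL2 and from -0.062 to 0.19 for EPHB2. In SW480 cells they ran from -0.12 to 0.27 for ASCL2, from -0.19 to 0.13 for EPHB2, from -0.17 to 0.094 for EPHB3, from -0.064 to 0.69 for MSI1, from -0.25 to 0.19 for LGR5, from -0.0097 to 0.25 for PTK7 and from -0.10 to 0.17 for ESRP2. For the difference they ran from -0.081 to 0.32 for ASCL2 and from -0.25 to 0.077 for EPHB2. The causes were not tested.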
